A study of Mus musculus with 4 samples.

Results

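The 10 genes of tissue-resident macrophages described here are Lyve1, Vsig4, Timd4, Folr2, Cd163, Mrc1, Mertk, Gas6, Cd5l and Vcam1. They were chosen by gene symbol, and all 10 were found among the 23420 symbols of the deposited table. The choice was made with the difference between the study's groups known, so values of the members in that comparison are given as a description and support nothing. The RNA came from myeloid cells of orthotopic cutaneous squamous cell carcinomas (cSCC) in FVB/N mice. The cells were sorted for the integrin CD11b and for CD200R1, which binds the surface protein CD200. In the WT group (wild type, 2 libraries) the tumours carried CD200. In the EpiKO group (K14Cre;CD200fl/fl, 2 libraries) a Cre recombinase under the keratin 14 promoter, which is active in the basal cells of stratified epithelium, had removed it from the tumour cells. By this design the deletion was directed at cells other than the sorted ones, and whether the sorted cells kept Cd200 intact was not tested. No treatment, time, age, sex or number of pooled animals is given in the labels for either group, and nothing says whether the 2 libraries of a group came from separate mice, so p-values measure only the spread between these libraries, which may be technical. Values are normalised read counts, that is, reads of a gene divided by 1 size factor per library.

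Macrophages that settle in a tissue and renew there carry surface receptors for clearing material from their surroundings. LYVE1 binds hyaluronan, VSIG4 binds complement C3 fragments, CD163 takes up haptoglobin and haemoglobin complexes, the mannose receptor MRC1 takes up glycoproteins and collagen, and FOLR2 binds folate. Apoptotic cells are recognised through their phosphatidylserine by TIMD4 directly, and by the receptor kinase MERTK through the bridging ligand GAS6. CD5L is a secreted scavenger protein and, like Mertk, a known target of liver X receptors, and VCAM1 is an adhesion molecule that binds integrin alpha 4 beta 1. LYVE1 also marks lymphatic endothelium, and VCAM1 is made by activated endothelium and stroma.

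The sequences just upstream of 4 members are shown because Vsig4, Cd163 and Mrc1 had the largest differences between the groups among members with an entry in the RefSeq promoter table, and Timd4 differed little. Each is the 250 bases before the RefSeq transcription start on GRCm38.p6, in the direction of the gene. Capitals mark matches to any of the 10 motifs searched, on either strand, and neighbouring or overlapping matches run together.
Vsig4: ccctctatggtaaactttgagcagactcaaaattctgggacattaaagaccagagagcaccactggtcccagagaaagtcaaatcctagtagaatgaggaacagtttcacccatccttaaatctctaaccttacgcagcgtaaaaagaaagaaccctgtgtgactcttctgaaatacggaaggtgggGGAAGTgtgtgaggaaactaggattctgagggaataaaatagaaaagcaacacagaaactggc
Cd163: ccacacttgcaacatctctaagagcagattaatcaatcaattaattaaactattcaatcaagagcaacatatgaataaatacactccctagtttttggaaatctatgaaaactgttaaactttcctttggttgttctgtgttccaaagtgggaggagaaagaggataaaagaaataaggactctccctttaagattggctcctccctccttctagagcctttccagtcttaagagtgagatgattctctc
Mrc1: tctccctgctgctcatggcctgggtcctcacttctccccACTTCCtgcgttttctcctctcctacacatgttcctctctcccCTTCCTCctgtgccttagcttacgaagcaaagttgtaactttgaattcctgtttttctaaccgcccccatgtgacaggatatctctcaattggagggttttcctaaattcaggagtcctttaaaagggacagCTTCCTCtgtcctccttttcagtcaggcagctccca
Timd4: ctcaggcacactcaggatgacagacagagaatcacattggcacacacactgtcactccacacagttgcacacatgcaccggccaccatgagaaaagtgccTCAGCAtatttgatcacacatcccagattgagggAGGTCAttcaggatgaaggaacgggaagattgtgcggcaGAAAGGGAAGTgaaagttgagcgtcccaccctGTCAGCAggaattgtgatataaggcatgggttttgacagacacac
These windows are chrX:96293439-96293688 on the minus strand for Vsig4, chr6:124304401-124304650 on the plus strand for Cd163, chr2:14229164-14229413 on the plus strand for Mrc1 and chr11:46810549-46810798 on the plus strand for Timd4. Of the 10 members 8 matched the promoter table, Folr2 with 2 start sites. Lyve1 and Vcam1 are named without a sequence.

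Over the whole 300 base windows, which add the first 50 transcribed bases, the motif GGAAGT, the core bound by ETS factors such as PU.1, matched 4 of 8 members (Vsig4, Mrc1, Folr2 and Timd4). It was present in 23.8% of 32851 promoter windows. TGCTGA, a core motif of MAF factors, also matched 4 of 8 members (Vsig4, Folr2, Timd4 and Cd5l), against 19.5% of all windows. Its longer form TGCTGAC, which contains it, matched Timd4 alone, against 4.67% of all windows. The PU.1 motif GAGGAAG matched Mrc1, at 2 places, and Cd5l (13.6% of windows). GAAANNGAA, an interferon regulatory factor motif, matched Folr2 and Timd4 (8.56%). AGGTCA, a nuclear receptor motif, matched Timd4 (16.3%), and the AP-1 motif TGANTCA matched Folr2 (7.81%). No member window held CACGTG, GGACTTTCC or TATAAA, which are in 7.15%, 0.344% and 13.6% of windows. The Cd163, Mertk and Gas6 windows held none of the 10 motifs, and 2 of the 3 matches in Vsig4 lie in the transcribed bases that are not shown. Matches are a description of letters in these windows, and their part in the RNA levels was not tested.

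Between 15884132 and 21244158 reads per library fell on genes. The label of the sorted cells was checked against 15 macrophage and myeloid genes, and none of them was at 0 in any library. Of the 15, 7 had a positive and 8 a negative log2 difference (median -0.0037), and none was called by limma. Over all tested genes the called share was 0.947%. Lyz2, the lysozyme gene, stood at 207009 and 157099 in WT against 325763 and 235159 in EpiKO, and the integrin gene Itgam at 26151 and 26738 against 40692 and 30075. The complement gene C1qa was at 83576 and 62908 against 52682 and 80217, and the cathepsin gene Ctss at 72994 and 58213 against 64650 and 65386. Cd200r1, the sorted receptor, was at 318 and 293 in WT against 1101 and 612 in EpiKO. Cd200 itself was at 92.7 and 59.7 in WT against 17.2 and 15.1 in EpiKO. Which cells these reads came from was not tested, so they do not check the labels. Summed keratinocyte markers (12 genes) were at 4927 in WT replicate 1 against 113, 71.1 and 60.5 in WT replicate 2 and EpiKO replicates 1 and 2. Because these are bulk samples, fewer cells of a type and less RNA per cell cannot be told apart.

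In 7 of the 9 tested members both EpiKO libraries lay above both WT libraries, and in no member did both lie below. Of all 12463 tested genes 23.3% were separated in that direction and 23.8% in the other, 47.1% in all. Tested genes reached a value of 10 in 2 or more libraries. Cd5l did not pass this filter, and the 9 others passed it in all 4 libraries. In the fit across all tested genes, 2 members, Lyve1 and Vsig4, were called higher in EpiKO and none lower (limma, Benjamini-Hochberg adjusted p under 0.05), while 0.417% of all tested genes were called higher and 0.530% lower, 0.947% in all. The same members were called by edgeR, which called 0.433% of tested genes higher and 0.530% lower. DESeq2 called 4 members higher and none lower, where it called 3.73% of tested genes higher and 3.12% lower. Since this comparison helped to choose the members, nothing is read from these shares. The median log2 difference was 0.36 over the 9 members and -0.0021 over all tested genes.

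**Figure D1:**
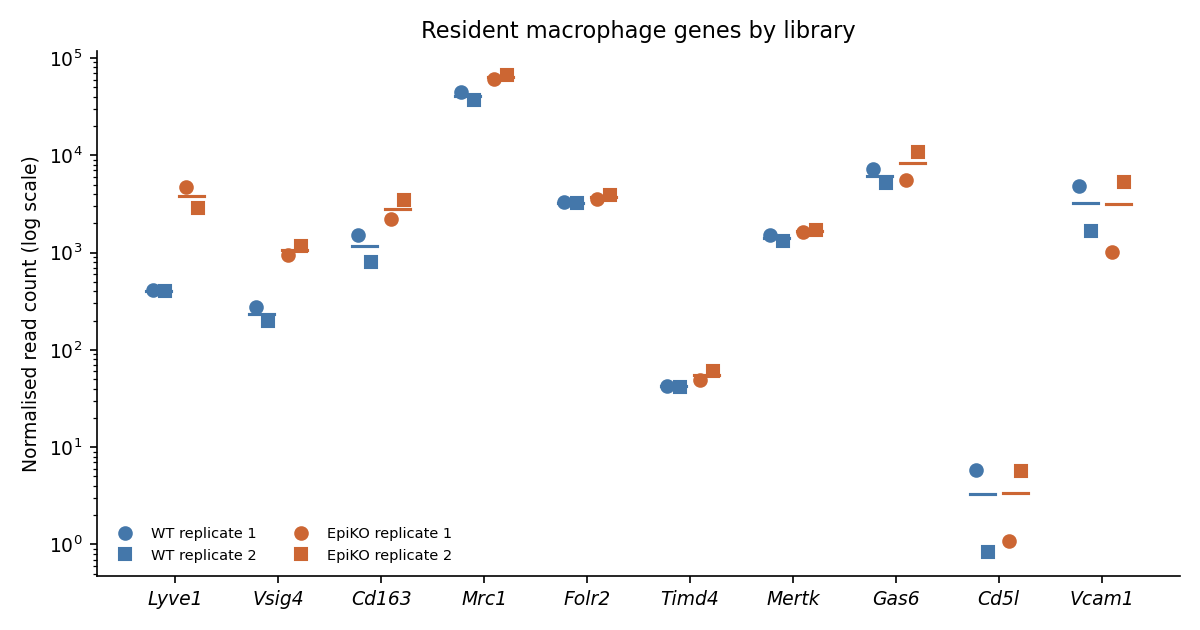
Normalised read count (log axis) of each of the 10 members in the 4 libraries, with WT in blue, EpiKO in orange, circles for replicate 1, squares for replicate 2 and short lines for group means. Lyve1 and Vsig4 show the widest gap between groups, Folr2, Timd4 and Mertk a narrow one, and Vcam1 is high in WT replicate 1 and EpiKO replicate 2.

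Lyve1, the hyaluronan receptor, stood at 409 and 400 in WT against 4684 and 2877 in EpiKO. The EpiKO libraries were far above the WT libraries and also differed among themselves, while the WT libraries nearly coincided. The group means, 405 ± 6.39 and 3780 ± 1278 (SD, n = 2 each), differ 9.34-fold, and the log2 difference was 3.18 (moderated SE 0.244). Without 1 library it was between 2.83 and 3.53, and the gene was still called without either EpiKO library but not without either WT library. Lyve1 (ENSMUSG00000030787.4) occupies bases 110850607 to 110863239 of chromosome 7 in mm10 (minus strand), with 2919 exonic bases and no exon sequence shared with another annotated gene.

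Lymphatic endothelium, another known source of Lyve1, left few reads. Of its 10 markers 2, Ccl21a and Gpm6a, had no read in any library. Prox1, its defining transcription factor, was at 3.48 and 0.841 in WT against 2.15 and 0 in EpiKO, where the value of 3 reads is between 2.52 and 3.48. Flt4 was at 6.95 and 5.88 in WT against 7.54 and 2.84 in EpiKO. The summed value of the list, 1487 and 1019 in WT and 3803 and 1303 in EpiKO, came mostly from Pdpn, which activated macrophages also express and which was at 1426 and 979 against 3768 and 1290. The 12 blood endothelium markers summed to 443 and 320 in WT against 344 and 386 in EpiKO, and 4 of the 6 tested had a negative log2 difference (median -0.25). Highest over the 4 libraries were Pecam1, at 73.0 and 53.8 against 104 and 117, Tie1, at 90.4 and 69.8 against 48.4 and 78.4, and Cdh5, at 58.0 and 61.4 against 76.4 and 85.1. The part of endothelial cells in the Lyve1 values was not tested. Cd44, the main hyaluronan receptor of leukocytes, was at 12470 and 11460 in WT against 10988 and 5480 in EpiKO. The hyaluronan synthase gene Has1 was low, at 9.27 and 3.36 against 40.9 and 42.5 (log2 difference 2.67, SE 0.570, adjusted p = 0.115 by limma). Has1 was called by DESeq2 and not by limma or edgeR, and it passed the filter on low values through the EpiKO libraries, so its groups had to differ.

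Among the scavenging receptors, Vsig4 stood at 276 and 197 in WT against 951 and 1165 in EpiKO. Both EpiKO libraries were several times above both WT libraries, and neither group was spread widely. The means of 236 ± 56.0 and 1058 ± 152 (SD, n = 2 each) differ 4.48-fold, and the log2 difference was 2.17 (SE 0.210), between 1.93 and 2.41 when 1 library was left out. Its call was lost without any 1 library. Vsig4 (ENSMUSG00000044206.3) is on the X chromosome of mm10 from 96247203 to 96293438, on the minus strand. Xist, made from the inactive X chromosome, was at 522 and 361 in WT against 1228 and 1510 in EpiKO, whereas the Y-linked Ddx3y was at 2310 and 1938 against 1843 and 1742. Xist overlaps Tsix on the other strand. The part of these X-linked differences in the Vsig4 values was not tested. C3, whose fragments VSIG4 binds, was at 1528 and 1136 in WT against 1670 and 844 in EpiKO, so its groups overlapped.

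Cd163 was at 1526 and 805 in WT against 2212 and 3461 in EpiKO. The groups did not overlap, but the step within each group was wider than the step from WT replicate 1 to EpiKO replicate 1. The means of 1166 ± 510 and 2837 ± 883 (SD, n = 2 each) differ 2.43-fold and the log2 difference was 1.32 (SE 0.371). It ran from 0.86 without WT replicate 2 to 1.78 without WT replicate 1. Cd163 was not called by limma or edgeR and was called by DESeq2 on the recovered reads. Hmox1, the haem oxygenase that breaks down haem taken up through CD163, stood at 4883 and 2806 in WT against 6385 and 7905 in EpiKO (log2 difference 0.94, SE 0.291, adjusted p = 0.229 by limma). Hmox1 too was called by DESeq2 and not by limma or edgeR.

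Mrc1 was the most abundant member, at 44319 and 37127 in WT against 61387 and 67477 in EpiKO. Both EpiKO libraries were above both WT libraries by a modest margin. The means of 40723 ± 5085 and 64432 ± 4306 (SD, n = 2 each) differ 1.58-fold, with a log2 difference of 0.67 (SE 0.162). It was called by DESeq2 and not by limma or edgeR. Folr2, the folate receptor of macrophages, was almost level at 3281 and 3248 in WT against 3533 and 3928 in EpiKO, a log2 difference of 0.19 (SE 0.112). It shares exon sequence with Gm10602 on the other strand, and the sources used here do not state whether counting used the strand. The folate carriers Slc46a1 and Slc19a1 were not called, and Fpgs, which retains folate in cells, had a log2 difference of -0.46 (SE 0.150, adjusted p = 0.240 by limma).

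**Figure D2:**
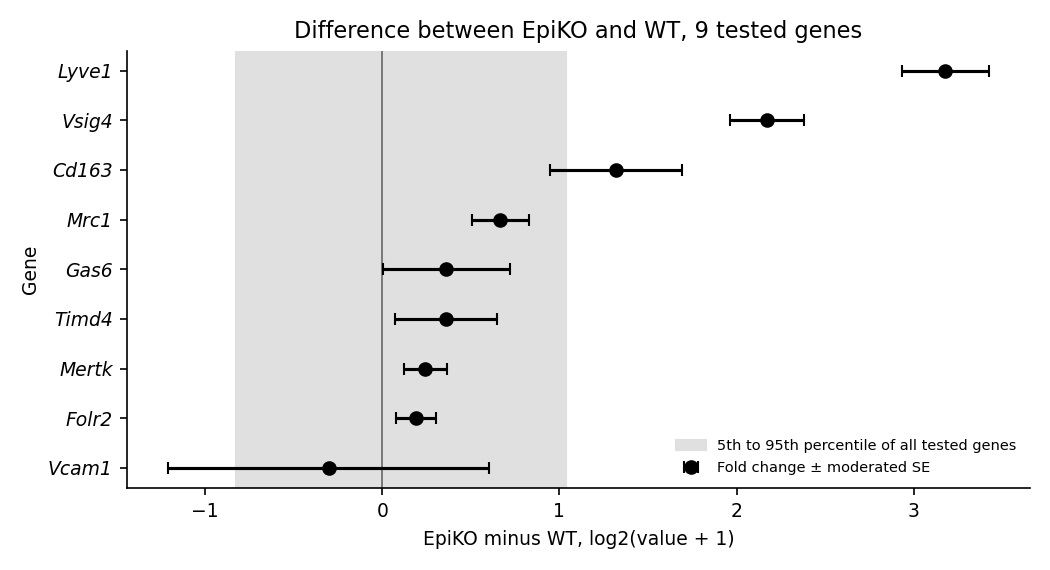
Difference between EpiKO and WT means on the log2(value + 1) scale for the 9 tested members, with moderated standard errors. The grey band spans the 5th to 95th percentile of all tested genes, from -0.82 to 1.03, and Lyve1, Vsig4 and Cd163 lie to its right.

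The receptors for apoptotic cells differed little between the groups. Timd4 was scarce, at 42.9 and 42.0 in WT against 49.5 and 60.5 in EpiKO. Behind these values are 37 and 50 reads for WT and 46 and 64 for EpiKO, and the EpiKO over WT ratio of pooled reads was 1.31 with an exact 95% interval of 0.977 to 1.75 that covers counting error only. Mertk was at 1518 and 1315 in WT against 1623 and 1724 in EpiKO, a log2 difference of 0.24 (SE 0.120). Its groups did not overlap, by a narrow margin. Gas6, its ligand, was at 7212 and 5157 in WT against 5614 and 10936 in EpiKO, so the groups overlapped. The log2 difference of Gas6 was 0.36 (SE 0.358) and turned to -0.12 without EpiKO replicate 2. The related kinase gene Axl was at 12650 and 6822 in WT against 13298 and 17983 in EpiKO (log2 difference 0.74, SE 0.334, adjusted p = 0.390 by limma). Tyro3, the third kinase of the family, was near the floor of the tested range at 18.5 and 16.8 against 25.8 and 23.6. The second ligand, Pros1, was at 1464 and 1369 in WT against 994 and 1267 in EpiKO.

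Cd5l had almost no reads, 5 and 1 for WT against 1 and 6 for EpiKO. The EpiKO over WT ratio was 1.21 with an exact 95% interval of 0.347 to 4.34 that covers counting error only, so no difference was detectable at this depth. Vcam1 was at 4801 and 1679 in WT against 1008 and 5266 in EpiKO. Each group held 1 high and 1 low library, and the spread within groups exceeded the difference between the means of 3240 ± 2207 and 3137 ± 3011 (SD, n = 2 each). The log2 difference of -0.30 (SE 0.905) turned to 0.46 without WT replicate 1 and to 0.89 without EpiKO replicate 1. Neither integrin chain that binds VCAM1 was called. Itga4 was at 1686 and 2325 in WT against 2369 and 2203 in EpiKO, and Itgb1 at 19492 and 19548 against 18086 and 15919.

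The remaining loci, all on mm10, are as follows. Cd163 spans chromosome 6 from 124304656 to 124330527 and Timd4 chromosome 11 from 46810800 to 46844332, both on the plus strand. Mrc1 and Mertk are on chromosome 2 from 14229392 to 14332057 and from 128698956 to 128802894, both on the plus strand. Cd5l, on the plus strand, and Vcam1, on the minus strand, are on chromosome 3 from 87357881 to 87371073 and from 116109949 to 116129688. Folr2 is on chromosome 7 from 101839988 to 101857194 and Gas6 on chromosome 8 from 13465374 to 13494490, both on the minus strand. Gas6 and Vcam1 share exon sequence with Tmem255b and Gm43109 on the other strand.

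Levels of different members were compared per kilobase of exon. In WT the order from high to low was Mrc1 (6392 normalised counts per kilobase), Gas6 (2427), Folr2 (2112), Vcam1 (365), Mertk (327), Cd163 (213), Vsig4 (159), Lyve1 (139), Timd4 (19.5) and Cd5l (1.63). The 2 WT libraries of Gas6 and Folr2 overlapped, as did those of Vcam1 and Mertk, Cd163 and Vsig4, and Vsig4 and Lyve1. In EpiKO the order was Mrc1 (10113), Gas6 (3248), Folr2 (2413), Lyve1 (1295), Vsig4 (713), Cd163 (519), Mertk (386), Vcam1 (354), Timd4 (25.3) and Cd5l (1.66). Only the neighbours Gas6 and Folr2, and Mertk and Vcam1, overlapped there. Lyve1 thus stood in 8th place in WT and in 4th in EpiKO. Its level per kilobase was above 57.9% of tested genes in WT and above 94.7% in EpiKO, and that of Mrc1 above 99.1% and 99.5%.

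Relative to macrophage identity genes, the members kept different parts of their gap. Each value was divided by the sum of 14 macrophage and myeloid identity genes (Cd200r1 left out), which was 611789 and 499827 for WT against 680655 and 622529 for EpiKO and is led by Lyz2. Per 1000 of this sum Lyve1 was at 0.669 and 0.801 in WT against 6.88 and 4.62 in EpiKO, and Vsig4 at 0.451 and 0.394 against 1.40 and 1.87. In 4 of the 9 tested members, Lyve1, Vsig4, Cd163 and Mrc1, EpiKO stayed above WT without overlap, as in 8.42% of all tested genes on this scale. Nothing is read from this count, since the group difference helped to choose the members. Folr2, at 5.36 and 6.50 in WT against 5.19 and 6.31 in EpiKO, Timd4 and Mertk then overlapped between the groups. This overlap holds for a sum weighted to Lyz2, which was itself higher in EpiKO (207009 and 157099 in WT against 325763 and 235159). A sum without Lyz2 was not used. Another scaling that was run took the geometric mean of the 14 genes, each with equal weight, but member values on it are not given here. The overlap is therefore not read as a loss of the gap.

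Genes whose profile over the 4 libraries was nearest to that of Lyve1 were found by the root mean square difference of centred log2 values among 10733 tested genes with a mean of at least 50. The 6 nearest were Ptprn, Ccl6, Ace, Itga1, Cdh2 and F10, at distances of 0.310 to 0.356 log2 units. Ace, which encodes the angiotensin-converting enzyme, was at 613 and 539 in WT against 3924 and 3050 in EpiKO, and the chemokine gene Ccl6 at 3412 and 2248 against 28464 and 13100. Itga1, a collagen-binding integrin, and Cdh2, N-cadherin, were low in WT, at 48.7 and 41.2 and at 17.4 and 12.6. The profile of Vsig4 had closer neighbours. Ccl24, Csf1, Gcnt4, Map1b, Cpt1c and Ptprv lay at 0.0792 to 0.158 log2 units. Ccl24, a chemokine of alternatively activated macrophages, was at 35.9 and 22.7 in WT against 124 and 136 in EpiKO, and Csf1, the macrophage growth factor, at 269 and 197 against 814 and 1053. The likeness rests on 4 libraries and on a profile that separates the groups. Ptprn, Itga1, Cdh2, Ccl24, Gcnt4, Cpt1c and Ptprv had WT means below 50. They reached the required mean only through the EpiKO libraries, so their groups had to differ and their likeness is not a finding. Ptprn, Ace, Gcnt4, Cpt1c and Ptprv share exon bases with an antisense gene and Itga1 with one on its own strand.

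Differences between libraries of the same group are a separate measure from the difference between the groups. Of the 9 tested members 8 were higher in WT replicate 1 than in WT replicate 2 and also higher in EpiKO replicate 2 than in EpiKO replicate 1, a pattern held by 28.0% of all tested genes. Lyve1 was the exception, with a log2 difference of 0.032 within WT and of -0.70 for EpiKO replicate 2 minus EpiKO replicate 1. Replicate numbers carry no order, and this pattern was described after the values were seen. The median absolute step of the members was 0.26 within WT and 0.29 within EpiKO, and that of all tested genes 0.18 and 0.19. The steps were 1.51 and 2.38 for Vcam1, 0.92 and 0.65 for Cd163, and 0.48 and 0.96 for Gas6. Vcam1 was above 1 log2 unit in both steps, as were 115 of all tested genes, or 0.923%, and 32 more had steps of that size in the opposite sense.

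Other resident macrophage genes leaned the same way and monocyte genes the other. Of 25 tested resident genes 14 were higher in WT replicate 1 and EpiKO replicate 2, and 3 were lower in both. Over all tested genes these shares were 28.0% and 26.5%. Igf1 was at 825 and 354 in WT against 255 and 817 in EpiKO, and the chemokine gene Ccl8 at 4050 and 1437 against 1045 and 3494. Both were among the 6 nearest profiles to Vcam1, with Batf3, Cd22, Tspan13 and Susd1, at distances of 0.177 to 0.273 (a search added after the values were seen). Of 23 tested monocyte and recruited macrophage genes 2 were higher in WT replicate 1 and EpiKO replicate 2 and 10 were lower in both, against 26.5% of all tested genes. Ccr2, the monocyte chemokine receptor, was at 10253 and 17563 in WT against 18506 and 11127 in EpiKO. The lean of the resident genes was not particular to them. Among lists described below, transcription factors had 11 of 24 higher and 3 lower, and liver X receptor targets 6 of 15 higher and 1 lower. Genes for engulfing apoptotic cells had 8 of 22 higher and 4 lower, and binding partners of the members 7 of 22 higher and 8 lower. Fibroblast markers showed the pattern of the members, with 10 of 11 tested higher in WT replicate 1 and EpiKO replicate 2 and summed values of 46104 and 31459 for WT against 24182 and 41085 for EpiKO. Their part in the Vcam1 and Gas6 values was not tested.

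**Figure D3:**
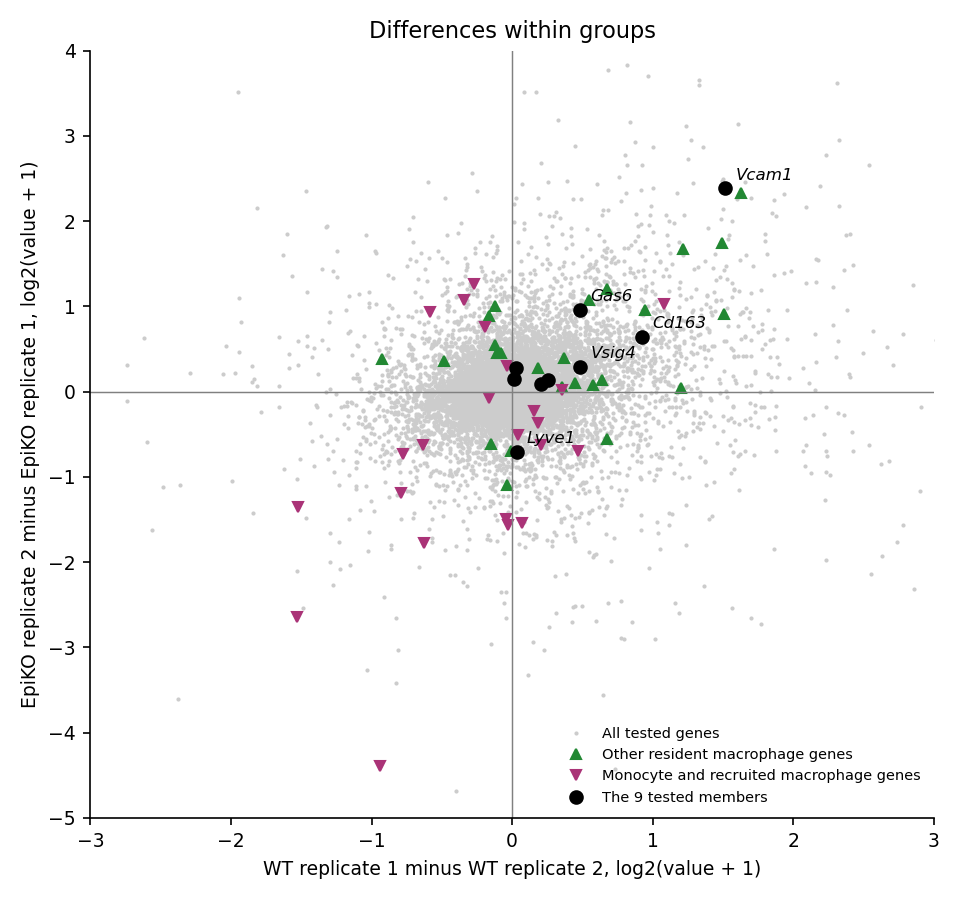
Each point is a gene, placed by its difference between the WT libraries (horizontal) and between the EpiKO libraries (vertical), both in log2(value + 1). The 9 tested members (black) lie at the upper right except Lyve1, monocyte genes (purple) lean to the lower left, and 45 of all tested genes fall outside the axes.

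Resident macrophage genes beyond the members were mostly not called. Of 30 listed genes 25 were tested, 1 was higher in EpiKO and 24 did not pass, with a median log2 difference of 0.27 against -0.0021 over all tested genes (limma). Limma called 0.417% of all tested genes higher and 0.530% lower. DESeq2 called 6 of the 25 higher (F13a1, Ccl24, Stab1, Cd38, Gfra2 and Maf), where it called 3.73% of all tested genes higher. The lists were chosen with earlier results of these data known, so nothing is read from these counts or those of the lists below. Gfra2, a receptor for neurturin of the GDNF family that large peritoneal macrophages carry, rose by 3.22 log2 units (SE 0.3998, adjusted p = 0.0471 by limma), with WT at 9.27 and 5.88 and EpiKO at 75.4 and 79.4. It passed the filter on low values through the EpiKO libraries, so its groups had to differ. The call of Gfra2 was lost without either WT library. Without either EpiKO library the gene failed the filter and was not tested, so its call held in no such run. F13a1, a coagulation factor subunit of macrophages, was at 25605 and 19996 in WT against 51773 and 53702 in EpiKO (log2 difference 1.22, SE 0.170, adjusted p = 0.0551 by limma). Ccl24 had a log2 difference of 2.14 (SE 0.323, adjusted p = 0.0615 by limma). Cbr2, Siglec1 and Ninj1, chosen after their values were seen as flat members of the list, had log2 differences of 0.085, 0.20 and -0.018.

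Of 25 genes for binding and engulfing apoptotic cells 22 were tested, 1 was higher and 21 did not pass by limma (median 0.079). Limma called 0.417% of all tested genes higher and 0.530% lower. DESeq2 called 3 of the 22 higher (Stab1, Gulp1 and Cd300lf) and 2 lower (Itgav and Cd36). Its shares over all tested genes were 3.73% higher and 3.12% lower. Gulp1, an engulfment adaptor, rose by 4.46 log2 units (SE 0.557, adjusted p = 0.0471 by limma). It had 3 reads in all in WT and 106 in EpiKO, an EpiKO over WT ratio of 36.5 (exact 95% interval 12.2 to 180, counting error only), and it too passed the filter through EpiKO. The call of Gulp1 was also lost without either WT library, and without either EpiKO library the gene failed the filter and was not tested. Itgav, the integrin chain that binds the bridging protein MFGE8, stood at 7117 and 8724 in WT against 3471 and 3922 in EpiKO (log2 difference -1.09, SE 0.149, adjusted p = 0.0540 by limma). Thbs1 was at 3789 and 3862 against 21946 and 7448, and Cd300lf at 1574 and 1332 against 2822 and 2036.

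None of 24 tested transcription factors of resident macrophages was called by limma or edgeR. Over all tested genes limma called 0.417% higher and 0.530% lower, and edgeR 0.433% and 0.530%. At an unadjusted p under 0.05 by limma, 6 of the factors were higher and 6 lower. The share of all tested genes at that threshold is not given here, so nothing is read from these counts. DESeq2 called 3 higher (Maf, Bhlhe41 and Tfec) and 3 lower (Nr1h3, Id3 and Klf4). It called 3.73% of all tested genes higher and 3.12% lower. The median log2 difference of the 24 factors was -0.19. Maf was at 4782 and 5196 in WT against 6535 and 9540 in EpiKO, with an adjusted p of 0.221 (limma). Nr1h3, liver X receptor alpha, was at 427 and 346 in WT against 191 and 198 in EpiKO (log2 difference -0.98, SE 0.166, adjusted p = 0.0754 by limma). Id3 was at 1142 and 852 against 507 and 534, and Tfec at 576 and 441 against 1298 and 926. Spic, the factor of red pulp and other haem-handling macrophages, was low, at 67.2 and 37.8 in WT against 5.38 and 31.2 in EpiKO.

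Of 15 liver X receptor targets 1 was higher, 1 lower and 13 did not pass by limma (median -0.025). Limma called 0.417% of all tested genes higher and 0.530% lower. DESeq2 called 1 of the 15 higher (Scd2) and 3 lower (Pltp, Nr1h3 and Lpl). Its shares over all tested genes were 3.73% higher and 3.12% lower. Pltp, the phospholipid transfer protein, fell by 1.72 log2 units (SE 0.177, adjusted p = 0.0381 by limma), with WT at 12516 and 14545 and EpiKO at 3556 and 4688. It shares exon sequence with Ctsa on the other strand. Scd2, a fatty acid desaturase, stood at 3534 and 3029 against 7302 and 6608 and rose by 1.09 log2 units (SE 0.132, adjusted p = 0.0471 by limma). Both calls were lost without any 1 library, and edgeR did not call Scd2. The lipoprotein lipase gene Lpl stood at 2660 and 2442 in WT against 520 and 162 in EpiKO, with an adjusted p of 0.0854 (limma).

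None of the 22 tested binding partners and ligands of the members was called by limma or edgeR. Over all tested genes limma called 0.417% higher and 0.530% lower, and edgeR 0.433% and 0.530%. At an unadjusted p under 0.05 by limma, 4 of the partners and ligands were higher and 1 lower. Nothing is read from these counts either, as the share of all tested genes at that threshold is not given here. DESeq2 called 3 higher (Has1, Hmox1 and Fasn), where it called 3.73% of all tested genes higher. Of 23 monocyte and recruited macrophage genes 2 were higher and 21 did not pass by limma, with a median of 0.52. Limma called 0.417% of all tested genes higher and 0.530% lower. DESeq2 called 7 of the 23 higher (Vcan, Ace, F10, Itgal, Msrb1, Spp1 and Gpnmb) and 1, Spn, lower. Its shares over all tested genes were 3.73% higher and 3.12% lower. Ace rose by 2.59 log2 units (SE 0.160, adjusted p = 0.0329 by limma). Itgal, the alpha chain of LFA-1, stood at 857 and 670 against 2819 and 2861 and rose by 1.91 log2 units (SE 0.148, adjusted p = 0.0334 by limma). Both calls were lost without any 1 library. Spp1, osteopontin, was at 47900 and 46436 against 158860 and 111359 (adjusted p = 0.0567 by limma), and Spn at 1647 and 2555 against 732 and 473. Of the genes named from these lists, F13a1, Maf, Itgav, Thbs1, Fpgs and Itga4 share exon bases with an antisense gene, and Nr1h3, Scd2 and Spp1 with a gene on their own strand.

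**Figure D4:**
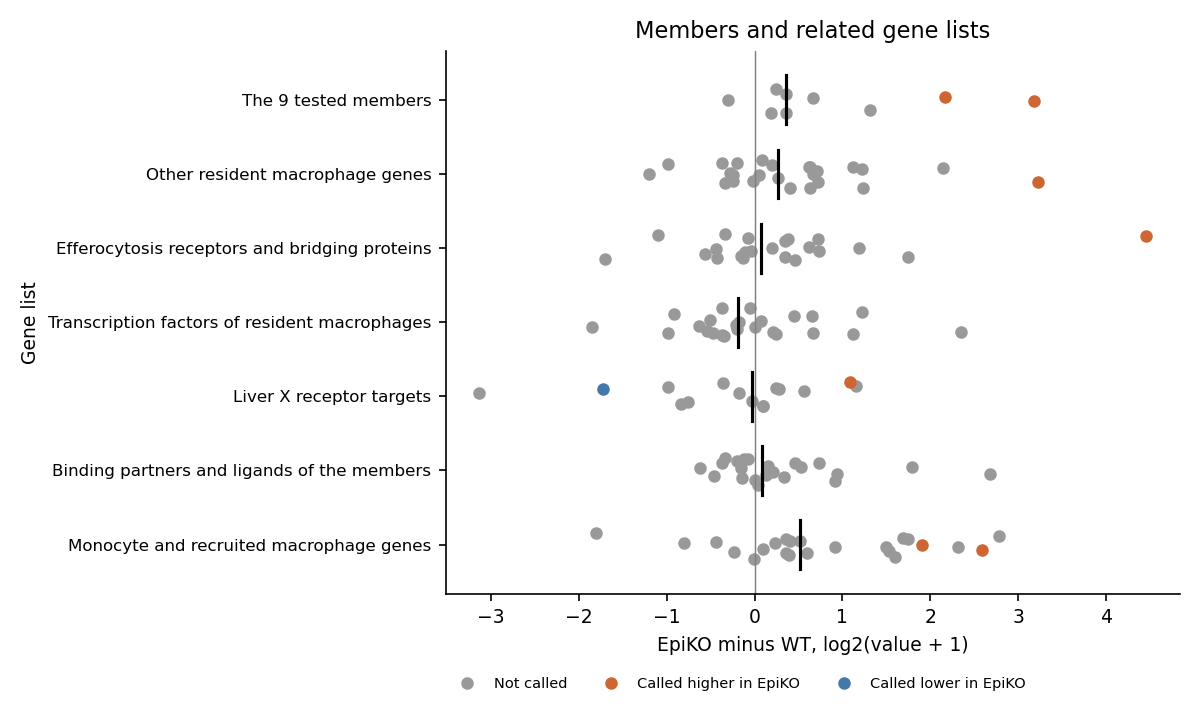
Difference between EpiKO and WT in log2(value + 1) for each tested gene of the 9 members and of 6 related lists, with the median of each list as a black line and vertical scatter added for legibility. Called genes are few in each list, and the medians lie between -0.19 and 0.52.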

How the data were processed

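RNA from the sorted cells was enriched for poly-A and prepared with an Illumina TruSeq kit, per the labels' protocols. The submitters' processing notes name bcl2fastq 2.17, STAR 2.5.2b, featureCounts 1.5.0-p3, DESeq2 and the mm10 build. For the annotation, the strand setting and multi-mapping reads nothing is stated in the sources used here. The authors deposited 1 table of normalised counts, a signal in which each library's reads are divided by a size factor. Dividing each column by the value of 1 read gave whole reads for 100.0% of values within 1e-06. Groups came from the genotype label, and replicate numbers follow deposition order and pair nothing.

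The main test was limma 3.58.1 (trend, robust; R 4.3.3) on log2(value + 1) for the 12463 genes that reached a value of 10 in 2 or more libraries, adjusted by Benjamini-Hochberg over all of them. It called 52 genes higher and 66 lower at an adjusted p under 0.05. The quasi-likelihood test of edgeR 4.0.16, run on these reads, called 54 higher and 66 lower, and DESeq2 1.42.0 called 465 and 389. The limma fit was also run on simulated reads with the same dispersion for every gene. The spread between the libraries here differed among genes, so that run does not check the calls. Because of the pseudocount of 1, fold changes of low genes are understated. Exonic lengths and loci are from GENCODE M21 for 23041 genes, and promoters from RefSeq.

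The members, 6 program lists and 11 marker lists were chosen with earlier results of these data known. Of 261 list entries 7 were matched by an older symbol and 4 were not matched. Genes named beside the members were the 6 nearest profiles to Lyve1 and Vsig4, called and lowest-p genes of each program list up to 4, the 3 highest of each marker list and binding partners and regulators (Axl, Pros1, Tyro3, Itga4, Itgb1, Cd44, C3, Hmox1, Maf, Nr1h3 and Spic). Cd200, Cbr2, Siglec1, Ninj1, Igf1, Ccl8, Ccr2, Prox1, Ccl21a, Gpm6a, the folate carriers and the neighbours of Vcam1 were chosen after their values were seen. The alternatives were other pseudocounts, filters, scalings, moderation, count tests and leaving out each library. Values of some listed genes are not reported here.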

Additional observations from a re-analysis of the deposited data

How the results depend on the processing

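All the alternative settings listed under processing were run. No paired analysis was possible because the labels give no replicate numbers. Over all genes, scaling to macrophage identity genes gave 318 higher and 352 lower calls among 12459 tested. Limma without trend and robust moderation gave 14 and 24 among 12463 tested, and DESeq2 465 and 389 among as many. Totals for the other pseudocounts and filters are not given here. Nothing is therefore read from the counts of members and list genes that follow. Leaving out 1 library gave 0 to 4 higher and 0 to 5 lower calls. Members called higher were 0 without trend and robust moderation, 4 by DESeq2 (adding Cd163 and Mrc1) and 0 to 1 without 1 library. For other resident genes higher calls were 2 with no filter, 0 with a filter at 50, 3 with identity scaling, 0 without trend, 6 by DESeq2 and 0 to 0 without 1 library. For engulfment genes they were 0 with a pseudocount of 0.5, 0 with the filter at 50, 0 without trend, 3 by DESeq2 and 0 to 1 without 1 library, and lower calls were 1 with no filter, 1 with identity scaling and 2 by DESeq2. Transcription factors had 2 higher and 2 lower calls with identity scaling and 3 and 3 by DESeq2. Liver X receptor targets had 0 higher calls without trend, 0 by edgeR and 0 to 0 without 1 library, and 2 lower calls with identity scaling, 0 without trend, 3 by DESeq2 and 0 to 1 without 1 library. Binding partners had 2 higher calls with identity scaling and 3 by DESeq2. Monocyte genes had 4 higher calls with identity scaling, 0 without trend, 7 by DESeq2 and 0 to 2 without 1 library, and 1 lower call by DESeq2. Signs turned in 6 cases, all on leaving out 1 library: Gas6 to -0.12 without EpiKO replicate 2 (range -0.12 to 0.84), Vcam1 to 0.46 without WT replicate 1 and to 0.89 without EpiKO replicate 1 (range -1.49 to 0.89), Itga4 to -0.025 without WT replicate 1 (range -0.025 to 0.44), and C3 to 0.063 without WT replicate 1 and to 0.34 without EpiKO replicate 2 (range -0.64 to 0.34). A group left with 1 library was assumed to vary like the other. The cause of these changes was not tested. With 2 libraries a group, precision rests on spread borrowed across genes, and at the depth of Cd5l, 6 reads in WT and 7 in EpiKO, no difference could be seen.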

Other observations

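The marker lists of other blood cells were summed in WT replicates 1 and 2 and in EpiKO replicates 1 and 2, and values follow in that order. T and NK cell markers summed to 1780, 610, 118 and 921, mostly from Cd4, which some macrophages also express and which was at 1755, 575, 100 and 893. B cell markers summed to 82.3, 75.7, 20.5 and 64.3, and mast cell and basophil markers to 338, 69.8, 202 and 149. Neutrophil markers summed to 1543, 3047, 4532 and 2452, of which Mmp8 made up 167, 222, 3757 and 847, and 6 of the 8 tested had a negative log2 difference (median -0.76). Dendritic cell markers summed to 27185, 28268, 26318 and 24742, almost all of it from Sirpa, a gene of many myeloid cells, at 25118, 27261, 25975 and 24282. Of the 8 tested dendritic cell markers 6 had a negative log2 difference (median -0.60). Within that list Cd207, langerin, fell by 5.10 log2 units in EpiKO (SE 0.368, adjusted p = 0.0329 by limma), with values of 1201, 590, 23.7 and 23.6.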
